A study of Homo sapiens with 4 samples.

Results

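The interferon regulatory factors (IRFs) and the IRF2-binding protein family were examined in U937 cells, an established human lymphoma line of monocytic character. The genes were IRF1, IRF2, IRF3, IRF5, IRF7, IRF8, IRF9, IRF2BP1, IRF2BP2 and IRF2BPL, 10 of the 13554 genes that could be tested. Every probe set (a group of short oligonucleotides that reads 1 transcript region) annotated with exactly 1 of these symbols was read, which gave 18 of the 54675 probe sets on the array. The genes were chosen from earlier results of the same shikonin against DMSO comparison, so their changes are a description and no p-value is given for them. The cells had been exposed to shikonin, a naphthoquinone from gromwell root, at 100 nM for 3 h (2 samples), or to dimethyl sulfoxide, DMSO, the solvent control (2 samples). A dose and a time belong to the shikonin samples only, so the length of the DMSO exposure is not known here. Each sample was read on its own short-oligonucleotide array.

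IRFs share an amino-terminal DNA-binding domain that recognises repeats of GAAA in the promoters of interferon and interferon-induced genes. In monocytes and macrophages some of them wait in the cytoplasm until a pattern sensor activates a kinase, as IRF3, IRF5 and IRF7 do, whereas others, such as IRF1, IRF2 and IRF8, act mainly through how much of them is made. IRF9 is part of ISGF3, the complex that carries the type I interferon signal to DNA. The IRF2-binding proteins are nuclear co-repressors with a zinc finger and a RING domain. IRF2BP1 and IRF2BP2 were first found through their contact with the repression domain of IRF2.

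Promoter windows of 300 bases were available from RefSeq (GRCh38.p14) for 7 of the 10 genes, in 12 windows because IRF5, IRF8 and IRF2BP2 have several annotated starts; IRF2, IRF3 and IRF7 had none in the table. Each window runs from 250 bases before to 50 bases after an annotated start. Whether U937 cells use that start was not tested, and a gene may have other starts outside these windows. The second IRF8 window reaches the start of the protein-coding sequence and overlaps the first. Both may therefore lie inside the gene, with its usual promoter outside them. Windows of 6 of the 7 genes held a match to at least 1 of the 8 motifs searched. The share of all windows with at least 1 match was not counted, so nothing is read from this. For single motifs that share ran from 1.85% to 22.8%. As examples, 4 windows are shown with each match in capitals: 3 of genes called lower after shikonin, and that of IRF9, which was not called, because it held both interferon-related motifs. The IRF1 window (chr5:132490724-132491023, minus strand) has a match to the STAT site, the IRF8 window (chr16:85902580-85902879, plus strand) has 2 matches to the IRF core, the IRF9 window (chr14:24161015-24161314, plus strand) has 1 of each, and the IRF2BPL window (chr14:77028659-77028958, minus strand) has a cyclic AMP response element.
IRF1: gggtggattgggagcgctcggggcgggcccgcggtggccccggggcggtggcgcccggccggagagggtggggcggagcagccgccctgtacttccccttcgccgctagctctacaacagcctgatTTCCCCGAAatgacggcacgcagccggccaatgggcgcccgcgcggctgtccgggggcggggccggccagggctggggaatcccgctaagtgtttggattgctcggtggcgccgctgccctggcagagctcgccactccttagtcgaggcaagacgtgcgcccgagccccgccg
IRF8: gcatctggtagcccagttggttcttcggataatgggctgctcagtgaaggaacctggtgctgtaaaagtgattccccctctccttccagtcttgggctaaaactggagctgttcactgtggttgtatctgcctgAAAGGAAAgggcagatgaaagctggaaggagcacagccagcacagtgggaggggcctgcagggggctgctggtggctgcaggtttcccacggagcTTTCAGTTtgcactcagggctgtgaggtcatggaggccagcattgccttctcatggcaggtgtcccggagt
IRF9: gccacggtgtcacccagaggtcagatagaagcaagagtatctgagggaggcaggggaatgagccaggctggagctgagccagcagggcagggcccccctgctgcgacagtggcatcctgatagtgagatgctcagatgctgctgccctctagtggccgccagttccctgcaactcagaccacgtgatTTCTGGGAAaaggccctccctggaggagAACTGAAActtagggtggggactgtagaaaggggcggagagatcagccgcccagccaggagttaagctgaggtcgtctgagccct
IRF2BPL: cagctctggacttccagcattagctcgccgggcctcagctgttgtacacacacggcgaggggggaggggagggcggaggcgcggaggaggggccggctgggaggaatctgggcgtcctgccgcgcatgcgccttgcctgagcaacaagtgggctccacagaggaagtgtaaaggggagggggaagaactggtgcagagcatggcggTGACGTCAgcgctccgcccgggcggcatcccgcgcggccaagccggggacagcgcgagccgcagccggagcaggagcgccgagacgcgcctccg

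The STAT site was searched as TTCNNNGAA, the IRF core as AANNGAAA and the cyclic AMP response element as TGACGTCA, on both strands. In IRF1 the match TTCCCCGAA began at position -124 from the start. In IRF8 the matches AAAGGAAA and TTTCAGTT began at -116 and -21, the second on the opposite strand, and the second window of the gene holds that same site again. IRF9 had TTCTGGGAA at -63 and AACTGAAA at -35, and IRF2BPL had TGACGTCA at -44. Of all 35116 promoter windows, 7.66% held TTCNNNGAA, 22.8% AANNGAAA and 1.85% TGACGTCA. Of the 12 windows here, 4 held the IRF core (1 of IRF5, both of IRF8 and that of IRF9) and 3 the STAT site (IRF1, IRF9 and IRF2BP1).

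The other 5 motifs were the kappa B site GGGNNTTCC (6.58% of all windows), the EGR site GCGGGGGCG (5.07%), the AP-1 site TGANTCA (7.71%), the heat shock element core GAANNTTC (6.77%) and the antioxidant response element TGACNNNGC (13.3%). Some motifs share letters: TGAC opens both the cyclic AMP and the antioxidant element, and the heat shock core and the STAT site are both built of GAA and TTC. IRF5 alone matched the kappa B, EGR and antioxidant letters, each in 1 of its 4 windows, and no window of the 7 genes matched AP-1 or heat shock letters. IRF2BP2 matched none of the 8 motifs in either window. A match is only a match of letters, and each motif was searched only as the letters given. A window without a match, such as that of IRF1 for kappa B, may still hold another form of the site.

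Median signal differed little between arrays (61.0 and 63.7 after shikonin, 60.5 and 62.2 in DMSO). Over the tested probe sets the median absolute log2 difference was 0.157 to 0.160 within a group and 0.243 to 0.251 between groups. Among monocyte markers, 4 of 9 with a probe set (TYROBP, FCER1G, CD4 and LYZ) exceeded a signal of 500 on all 4 arrays; no T cell, B cell, erythroid, epithelial or fibroblast marker did, and of the NK cell markers only NKG7 did. None of the tested markers was called, and the summed monocyte signal ran from 14210 to 15030 after shikonin and from 13980 to 14270 in DMSO. The samples are bulk RNA, in which fewer cells of a type and less RNA per cell cannot be told apart. The sources do not say that the samples came from separate cultures, so the spread between them may be technical.

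With the brightest probe set standing for each gene, IRF1, IRF2, IRF5, IRF8, IRF2BP2 and IRF2BPL were lower after shikonin. These 6 of 10 genes passed the threshold of the fit across all probe sets, an adjusted p under 0.05 in limma (its moderated test with Benjamini-Hochberg adjustment), while 6.65% of all genes tested were called lower. None of the 10 was called higher, against 5.05% of all genes, and none had an unadjusted p under 0.05 in that direction. All 10 estimates were below 0, as were 49.5% of all genes. The median log2 change of the 10 genes was -0.36 and that of all genes tested was 0.0030. The calls rest on a variance prior that follows signal: with a single prior limma called 0 of the 10 and 0 of all genes, with 6 of the 10 lower at an unadjusted p under 0.05. These counts describe genes picked with this comparison in view, and nothing is read from their distance to the background.

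**Figure D1:**
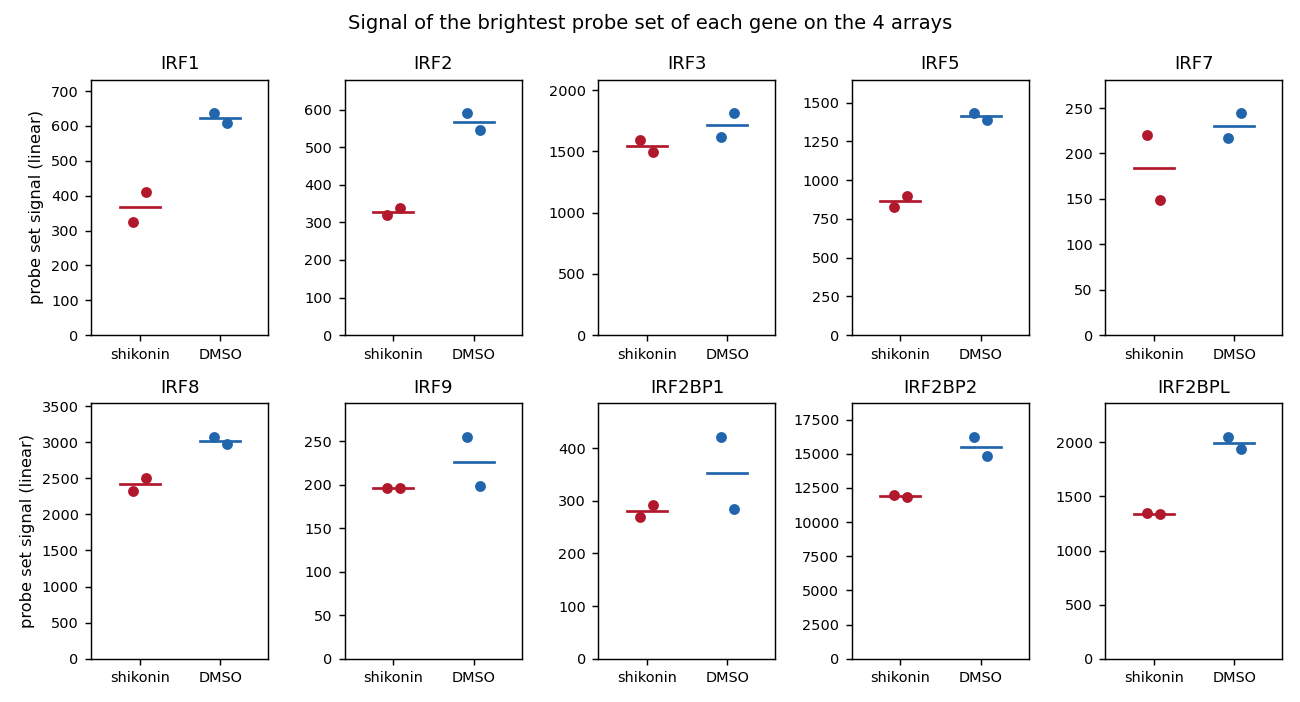
Signal of the brightest probe set of each gene (linear scale, y axes from 0) on the 2 shikonin arrays (left, red points) and the 2 DMSO arrays (right, blue points); bars are group means. The points of the groups are apart in 8 genes and overlap in IRF7 and IRF2BP1.

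IRF1 is an activator that interferon gamma induces within hours and that drives antigen presentation genes. Its brighter probe set had signals of 324 and 412 after shikonin, against 637 and 608 in DMSO. Both shikonin arrays lay below both DMSO arrays, with shikonin 1 the lower. The log2 change, shikonin minus DMSO on log2(signal + 9.94), was -0.75 (SE 0.139, n = 2 each), which is 1.68-fold lower. The second, dimmer probe set read 99.2 and 173 after shikonin and 260 and 230.3 in DMSO. Its change of -0.85 (SE 0.259) was as large, but the shikonin arrays were wide apart and it was not called.

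IRF2 binds the same sites as IRF1 and mostly represses them. Its only probe set read 319 and 337 after shikonin, against 591 and 545 in DMSO. The 4 arrays fell into clearly separate pairs. At -0.77 (SE 0.123) the change was the most negative of the 10 genes, 1.71-fold lower, and 3.52% of all genes tested had a more negative one. For IRF1 that share was 3.81%. The estimates of the activator and its antagonist differed by less than the SE of either.

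IRF5 passes signals of Toll-like receptors to the genes of inflammatory cytokines and is a macrophage factor. Its brightest probe set had 830.1 and 896 after shikonin and 1434 and 1389 in DMSO. Arrays of 1 group lay close together and far from the other group, and the log2 change was -0.70 (SE 0.086), 1.63-fold lower. A second probe set, at 647 and 656 after shikonin against 957 and 931 in DMSO, was called too (-0.53, SE 0.0928). The third was dimmer, changed by -0.42 (SE 0.156) and was not called, although its arrays did not overlap either: 215 and 237 after shikonin, 299 and 311 in DMSO.

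IRF8, which works with PU.1 to set monocyte and dendritic cell fate, read 2322 and 2510.3 after shikonin and 3075 and 2969 in DMSO. The groups did not overlap, and the change was small, -0.32 (SE 0.0692), or 1.25-fold lower. Among the called members this was the smallest change, and 17.0% of all genes had a more negative one. The call was lost without DMSO 1, when the change was -0.30, and without shikonin 1, when it was -0.27.

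**Figure D2:**
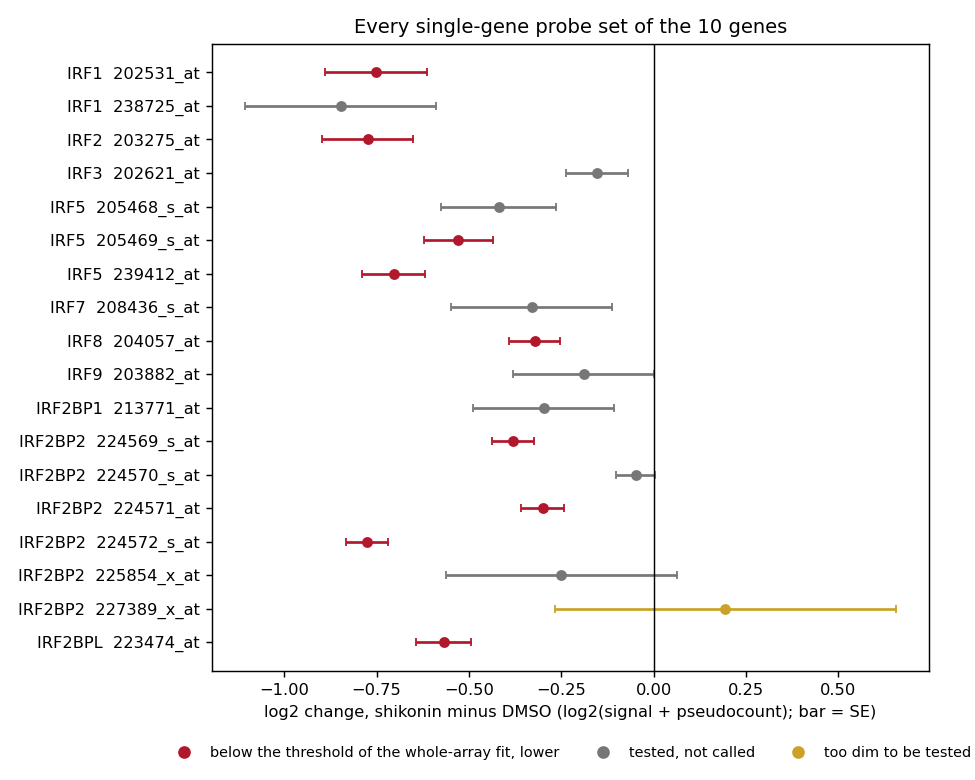
Log2 change (shikonin minus DMSO, x axis) with its SE for each of the 18 probe sets, named on the y axis by gene and probe set; red marks those called lower in the fit across all probe sets, grey those tested and not called, yellow the 1 too dim to be tested. All 17 tested estimates lie below 0, from -0.85 to -0.05.

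The remaining IRFs were not called. IRF3, the factor that TBK1 phosphorylates to switch on interferon beta, had 1591 and 1492 after shikonin and 1621 and 1813 in DMSO. The groups nearly touched, and the change of -0.15 (SE 0.0842) was within the scatter of the DMSO arrays, which differed by 0.161 on the log2 scale. IRF7, which amplifies interferon alpha and is itself interferon-induced, had 220.2 and 149 after shikonin and 217 and 244 in DMSO. Its groups overlapped: shikonin 1 was above DMSO 1. The IRF7 estimate of -0.33 (SE 0.218) was as large as that of IRF8, but the 2 shikonin arrays of IRF7 were 0.536 apart in log2, against 0.112 for IRF8.

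IRF9, the DNA-binding subunit of ISGF3, had 195.99 and 195.64 after shikonin and 255 and 198 in DMSO. The shikonin arrays were almost equal, whereas DMSO 2 lay just above them and DMSO 1 far above. Its change was -0.19 (SE 0.190). A further probe set is annotated to IRF9 and RNF31 together and was left out for that reason.

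The IRF2-binding proteins differed in the same way. IRF2BP1 had 269 and 293 after shikonin and 422 and 285 in DMSO, so that DMSO 2 fell between the shikonin arrays and the groups overlapped; the change was -0.30 (SE 0.191) and was not called. IRF2BPL, the relative best known for its part in the hypothalamic control of puberty, had 1347 and 1333 after shikonin and 2052 and 1935 in DMSO. Arrays of each group were close and the groups well apart. Its log2 change was -0.57 (SE 0.0746), 1.48-fold lower, and 7.16% of all genes tested had a more negative change.

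IRF2BP2, a co-repressor studied in macrophages for its restraint of inflammatory genes, had 6 probe sets, 5 of them bright enough to be tested. The brightest read 11970.4 and 11818 after shikonin and 16240.1 and 14795.5 in DMSO, a log2 change of -0.38 (SE 0.0572). Another, at 3563 and 3526.5 after shikonin against 6168 and 5993 in DMSO, changed by -0.78 (SE 0.0570). The next changed by -0.30 (SE 0.0574). All 3 were called lower, and their arrays did not overlap.

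The probe sets of IRF2BP2 did not show 1 size of change. The fourth bright one read 6686 and 6817 after shikonin and 6883 and 7087 in DMSO, a change of -0.05 (SE 0.0537) that was not called. Its SE was as small as those of the other 3. The estimates of the 4 bright probe sets therefore ran from -0.78 to -0.05, so the size of the IRF2BP2 change depends on which probe set is read, and why they differ was not tested. The remaining 2 end in _x_at, the mark of probes that may cross-hybridise; 1 was dim and not called (-0.25, SE 0.313), and the other had signals of 11.8 and 24.2 after shikonin and 13.7 and 14.1 in DMSO, below the 40th percentile of every array.

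Counted by probe set, 9 of the 17 tested were called lower, against 5.28% of all probe sets, and 0 higher, against 3.92%. Both shikonin arrays lay below both DMSO arrays for 8 of the 10 genes; the same held for 27.3% of all genes, and the opposite order for 28.2%. The SE of called genes lay between 0.0572 and 0.139, and that of genes not called between 0.0842 and 0.218. All 10 genes were above the 40th percentile on every array. Of all genes called lower, the median log2 change was -0.52. By their brightest probe sets, IRF8 and IRF2BP2 changed less and IRF1, IRF2, IRF5 and IRF2BPL more than that. Another IRF2BP2 probe set changed by -0.78, which is more.

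**Figure D3:**
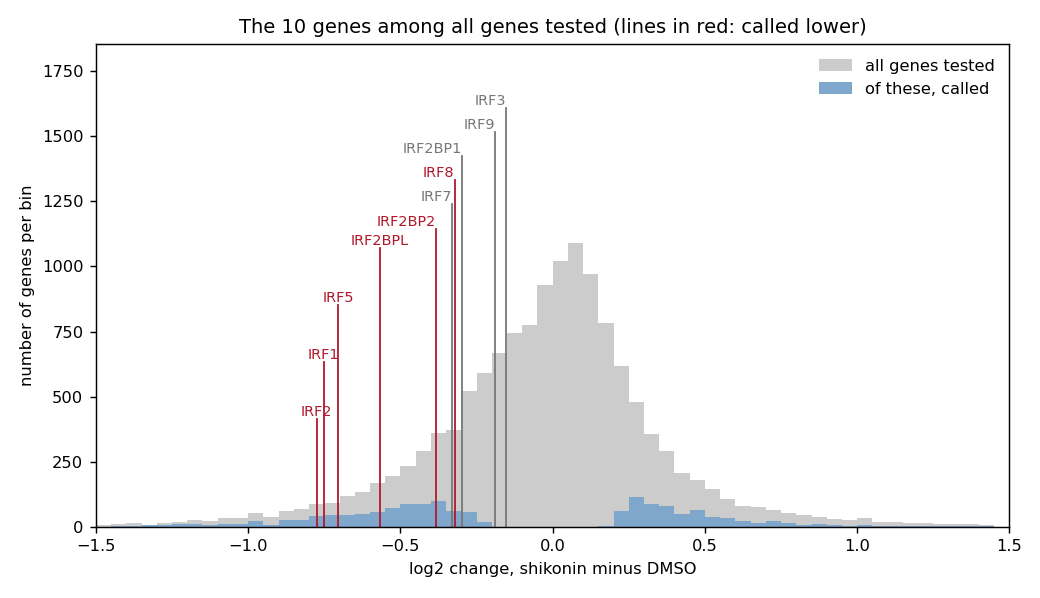
Histogram of log2 changes (shikonin minus DMSO, bins of 0.05) of the 13554 genes tested in grey, with the called genes of each bin in blue; 73 genes beyond 1.5 in size are not shown. Vertical lines mark the 10 genes, red where called lower: IRF2, IRF1 and IRF5 stand together below the 5th percentile of all genes (-0.67), and IRF3 is nearest to 0.

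The genes around the IRFs were then read from lists of sensors and kinases, interferon receptors, binding partners, restraints and targets. These lists too were chosen with earlier results of these data known, so the p-values printed for their genes are a description. Of 115 tested genes in these lists, 8 were called lower (6.96%) and 3 higher (2.61%), with a median log2 change of -0.07. Over all genes tested these shares were 6.65% and 5.05%. Among 23 sensors, adaptors and kinases upstream of IRFs, 1 was lower and 1 higher (4.35% each). TANK, an adaptor that binds TBK1, had 1504 and 1576 after shikonin and 2147 and 2471 in DMSO (log2 change -0.58, SE 0.0852, limma adjusted p = 0.00401). TBK1 itself, the kinase of IRF3 and IRF7, had 1385 and 1335 after shikonin and 1054 and 1083 in DMSO (0.35, SE 0.0806, limma adjusted p = 0.0297). The groups were apart in both genes, but TBK1 was no longer called once any single array was left out (limma adjusted p 0.0716 to 0.126), while its change stayed between 0.32 and 0.37. Of the 3 other TANK probe sets, 2 were called the same way.

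Interferon genes were almost all too dim to be tested: 1 of 8 was, IFNL1, with a signal of 60.01 and 32.1 after shikonin and 52.6 and 69.8 in DMSO, which overlapped. Of 8 tested interferon receptors and JAKs, limma called 0, against 6.65% of all genes lower and 5.05% higher. Of these 8, 1 had an unadjusted p under 0.05 (0 with a variance prior that does not follow signal). Their median change was -0.05, and JAK2, a kinase of the interferon gamma receptor, had the most negative estimate, -0.39 (SE 0.182, limma adjusted p = 0.232). The receptor gene IL10RB changed less, by -0.19, with a smaller SE (0.0724, limma adjusted p = 0.153). IRF4, a lymphocyte factor of the family, was dim at 55.8 and 43.6 after shikonin and 52.6 and 62.4 in DMSO, without a call.

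Of 14 binding partners, BATF was higher and ETV6 lower (7.14% each way, against 5.05% of all genes higher and 6.65% lower). BATF, a leucine zipper protein that pairs with IRF4 and IRF8 on DNA, had 2353 and 2353 after shikonin and 1636 and 1647 in DMSO (0.52, SE 0.0683, limma adjusted p = 0.00228). ETV6, a repressor that can bind IRF8, changed by -0.33 (SE 0.0865, limma adjusted p = 0.0462). It was not called once any single array was left out (change -0.38 to -0.28). The ETV6 call was also lost with gene means, without a filter, with quantile normalization and without probe sets ending in _x_at or _s_at. Its 4 other tested probe sets lay between -0.43 and -0.26, and 0 were called. SPI1, which encodes the IRF8 partner PU.1, had 456 and 519 after shikonin and 486 and 506 in DMSO. These overlapped, and its change was -0.03 (SE 0.121).

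Among 16 restraints of IRF and interferon signalling, 5 were called lower (31.2% of the list, against 6.65% of all genes) and 0 higher (5.05% of all genes), with a median of -0.21. At an unadjusted p under 0.05 these counts were 8 and 1. PPM1B, a phosphatase that acts on TBK1, had 2113 and 2012 after shikonin and 3914 and 3893 in DMSO (-0.92, SE 0.0644, limma adjusted p = 7.94e-05), but its other probe set changed by -0.04 and was not called. PIAS3, an inhibitor of STAT3, changed by -0.74 (SE 0.151), and its call went without DMSO 2 or shikonin 1. CYLD, a deubiquitinase, changed by -0.60 (SE 0.144) and was not called once any single array was left out; its 4 other probe sets lay between -0.42 and 0.06 and were not called. RBCK1, a ubiquitin ligase subunit reported to act on IRF3, changed by -0.45 (SE 0.0641), while its 2 other probe sets lay at 0.26 and 0.27. PTPN6, the phosphatase SHP-1, was the fifth at -0.39 (SE 0.063); it lay outside the naming rule and is named after its value was seen.

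Known targets of the factors were read in the same way, beside 6.65% of all genes called lower and 5.05% higher. Of 32 tested targets of ISGF3, 1 was called lower (3.12%) and 0 higher, with a median of -0.13. At an unadjusted p under 0.05 these counts were 4 and 2. The 1 called was PML, a nuclear body protein, at 417 and 335 after shikonin and 592 and 539 in DMSO (-0.58, SE 0.140, limma adjusted p = 0.033). Its probe set ends in _x_at, and of its 8 other tested probe sets 1 was called the same way. The PML call was lost without DMSO 1, DMSO 2 or shikonin 2. It was also lost with gene means, without a filter, with quantile normalization and without probe sets ending in _x_at or _s_at. Of 20 targets of IRF1 and IRF8, 0 were called lower and 1 higher (5.0%), with a median of -0.01. Their counts at an unadjusted p under 0.05 were 1 and 2. CASP1, the inflammasome protease and a known IRF1 target, was the 1 called, with 1601 and 1672 after shikonin and 1122 and 1125 in DMSO (0.54, SE 0.0775, limma adjusted p = 0.00358), and its 4 other probe sets were called higher as well. Some targets had a wide SE, such as MX1 (-1.05, SE 0.657) and IDO1 (0.80, SE 0.721), which are named for that SE outside the naming rule. A missing call there does not show that the gene stayed the same. No test compared any list with other genes.

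**Figure D4:**
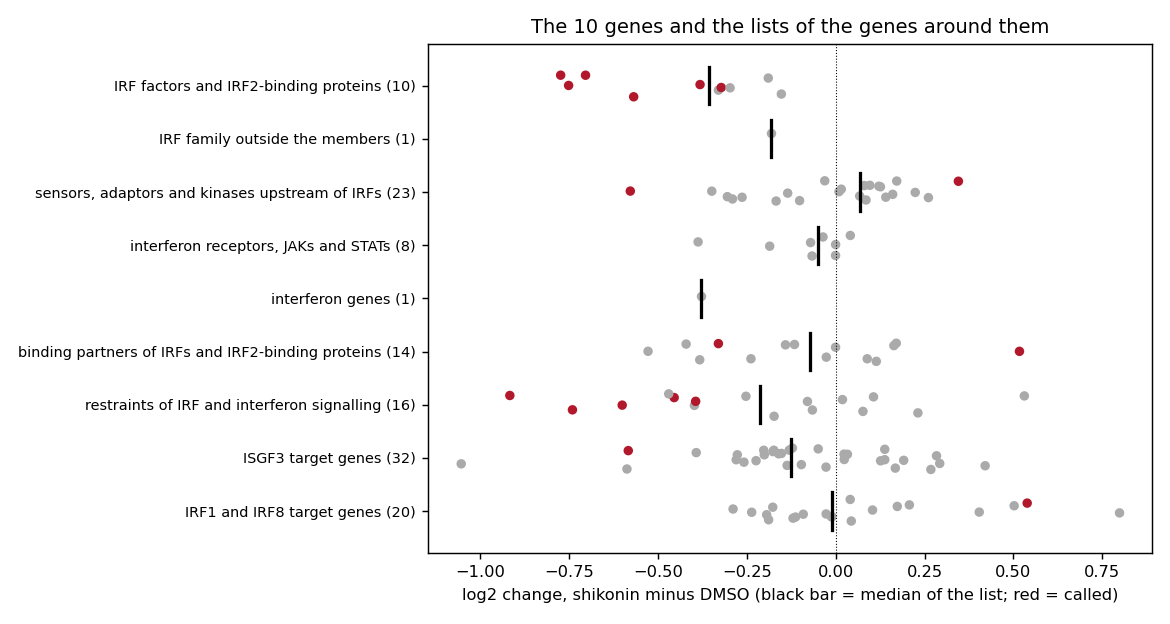
Log2 change (shikonin minus DMSO, x axis) of each tested gene, by list (y axis, number tested in brackets); red points were called, grey ones not, and black bars are medians. The 10 genes have a median of -0.36, ISGF3 targets of -0.13 and targets of IRF1 and IRF8 of -0.01; vertical scatter within a row only separates points.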

How the data were processed

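Biotin-labelled cRNA was made from total RNA by 3'-biased amplification and read on Affymetrix U133 Plus arrays, per the labels' protocols. The deposited values are linear intensity, 1 per probe set; which software summarised them is not given in the sources used. After trimming 2% at each end the mean intensity was 499.9 on all arrays, so each change is measured against the array as a whole.

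Values were taken as log2(intensity + 9.94), with the 20th percentile as pseudocount, which makes changes of dim genes look smaller. Controls and the dimmest 40% of probe sets were left out (32768 kept), with no further normalization. Differences were fitted with limma 3.58.1 in R 4.3.3 (trended variance, two-sided, 2 residual and 7.1 prior degrees of freedom). They were adjusted over all kept probe sets by Benjamini-Hochberg at 0.05. A run on simulated data with log2 changes of 1 and 2 in size checked the mean estimates only. Changes as small as those of the 10 genes were not simulated, and no condition was set on false calls. The platform annotation gave 41097 probe sets 1 gene, 1801 several and 11777 none; a gene's brightest single-gene probe set stood for it. Named were all 10 genes, up to 4 called genes per list with the largest change (2 where none was called), IRF4, TBK1 and SPI1. PTPN6, MX1 and IDO1 were named outside this rule. Some listed genes are not reported here. Members and lists were chosen with earlier results of these data known. The number of arrays limits precision. Alternatives covered pseudocount, filter, normalization, variance prior, probe set choice, pairing and leaving out each array.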

Additional observations from a re-analysis of the deposited data

How the results depend on the processing

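Across alternatives the 10 genes gave 129 values, all negative, and 121 of these kept the call or the lack of it; no member was called higher in any. The count of 6 lower held under each pseudocount, filter, normalization and probe set choice, was 5 without DMSO 1 or shikonin 1 (IRF8), and was 0 with a variance prior that does not follow signal. That prior also gave 0 genes called lower or higher over the whole array (smallest adjusted p 0.0764; 1378 lower and 1039 higher at an unadjusted p under 0.05, 6 of the 10 members among the lower) and 0 pathway genes in either direction. Genes called higher over the array (685 as reported) numbered 350 without a filter and 303 to 443 without 1 array, and genes called lower (901 as reported) 588 to 679 without 1 array. Pathway genes called lower (8 as reported) numbered 5 with gene means, 5 without a filter, 3 without probe sets ending in _x_at or _s_at, and 4 to 6 without 1 array. Estimates changed sign for CYLD without such probe sets (0.0601), for RBCK1 with gene means (0.0254) and for SPI1, never called, with quantile normalization (0.0323) and without DMSO 2 or shikonin 1 (range over the arrays left out -0.117 to 0.0637); the cause was not tested. Same-numbered arrays shared only a number (correlation of deviations 0.0216); with a replicate block, 1234 genes were called higher, 1324 lower, 13 pathway genes lower and the same count of 6 members. With 2 arrays a group, small changes of dim genes could not be resolved.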
